A study of Mus musculus with 10 samples.

Results

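The transcription factors GATA1, GATA2 and GATA3 and the cofactor FOG1 were followed in long-term hematopoietic stem cells (LT-HSCs) of the fetal liver, through the genes Gata1, Gata2, Gata3 and Zfpm1 (which encodes FOG1). These are 4 of the 17404 genes in the table of gene counts, with 19 of the 133944 transcripts in the transcript tables, and all 4 passed the filter on low counts. The genes were taken by name as a family of factors and their cofactor, with earlier results of these data known. LT-HSCs had been sorted as CD150+ cells from C57BL/6 fetal livers at E14.5, and RNA of each sample was amplified by SmartSeq2, which copies polyadenylated RNA along its length from small amounts of input. Of the 10 libraries, 6 came from Tnfrsf11aCre; Spi1f/f embryos (KO) and 4 from Tnfrsf11a+/+; Spi1f/f littermate controls (WT), so both groups carried 2 floxed alleles of Spi1, the gene of the transcription factor PU.1. The KO embryos also carried a Tnfrsf11a-driven Cre recombinase. That Cre acts in macrophage progenitors, so KO embryos lack most fetal macrophages while the LT-HSCs are not themselves the targeted cells. The comparison asks how these 4 genes are expressed in LT-HSCs of livers with and without macrophages.

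GATA factors bind DNA through zinc fingers and act in blood formation in sequence. GATA2 is required for the maintenance of hematopoietic stem cells. GATA1 drives erythroid, megakaryocyte, mast cell and eosinophil development and takes over sites held by GATA2 as red cells form, a replacement known as the GATA switch. FOG1 does not bind DNA by itself but docks onto the amino-terminal finger of GATA factors and is needed for red cell and megakaryocyte formation. GATA3 is best known for T cell and innate lymphoid development and is also expressed in early hematopoietic stem cells.

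The sequence that the 3 GATA factors share, and that FOG1 contacts, is shown because it bears on whether short reads can be told apart between them. The stretches below are the 120 coding bases around the amino-terminal finger in the leading transcript of each gene, 5′ to 3′, from Gencode vM21 on GRCm38, with capitals for the bases identical in all 3. Each lies in coding sequence within exon 4 of the 6 exons of its transcript. The positions are chrX:7961942-7962061 on the minus strand for Gata1, chr6:88202427-88202546 on the plus strand for Gata2 and chr2:9868779-9868898 on the minus strand for Gata3.
Gata1: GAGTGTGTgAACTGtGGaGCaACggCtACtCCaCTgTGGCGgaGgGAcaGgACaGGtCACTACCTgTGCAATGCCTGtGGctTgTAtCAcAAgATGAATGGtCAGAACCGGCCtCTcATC
Gata2: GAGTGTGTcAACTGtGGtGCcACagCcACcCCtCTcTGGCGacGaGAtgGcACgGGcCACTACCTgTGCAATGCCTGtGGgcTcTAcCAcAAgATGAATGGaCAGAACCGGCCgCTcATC
Gata3: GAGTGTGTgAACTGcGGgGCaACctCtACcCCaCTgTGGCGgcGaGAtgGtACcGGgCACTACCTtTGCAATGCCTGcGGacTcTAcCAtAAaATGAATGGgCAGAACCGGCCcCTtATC
In this window 91 of 120 bases (75.8%) were identical in all 3 genes, and pairs of genes shared 97 to 99 bases. The longest run of bases common to 2 of the leading transcripts was 23, between Gata1 and Gata2. No stretch of 31 bases was common to any of the 4 genes, 31 being the default word length of Kallisto. Gata1, Gata2 and Zfpm1 shared none with any other gene either. Gata3 shared 152 of its 3966 distinct stretches (3.83%), almost all with the antisense gene Gm13256 and with 9230102O04Rik, whose exons overlap it. These held 4.6 and 4.0 estimated counts over all 10 libraries, so reads of the overlapping genes were few beside those of Gata3.

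Stretches before annotated start sites are shown next for Gata1 and Gata2, whose ratio is reported below. The part of promoter sequence in that ratio was not tested. The 250 bases before the RefSeq start (GRCm38.p6) are given 5′ to 3′ on the strand of the gene, with CG dinucleotides in capitals. The Gata1 stretch is chrX:7967911-7968160 on the minus strand, and the Gata2 stretch, before the distal first exon used by the leading transcript, is chr6:88193641-88193890 on the plus strand.
Gata1 promoter: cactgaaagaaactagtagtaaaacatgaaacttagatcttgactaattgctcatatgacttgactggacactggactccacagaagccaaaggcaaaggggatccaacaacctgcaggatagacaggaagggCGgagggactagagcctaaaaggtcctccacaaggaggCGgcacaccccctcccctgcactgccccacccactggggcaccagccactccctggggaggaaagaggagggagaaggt
Gata2 distal promoter: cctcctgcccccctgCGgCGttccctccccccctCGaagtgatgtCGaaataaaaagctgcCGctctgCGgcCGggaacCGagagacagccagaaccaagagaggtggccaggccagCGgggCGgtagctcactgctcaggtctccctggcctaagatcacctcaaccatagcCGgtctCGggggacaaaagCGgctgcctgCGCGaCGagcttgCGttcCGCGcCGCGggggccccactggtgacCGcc
The Gata1 stretch held 2 CG dinucleotides at a GC content of 54.0%, against 22 and 67.2% for Gata2. The stretches before Gata3 and Zfpm1 held 19 and 28. The median over the 32851 promoters of the table was 6 CG dinucleotides and a GC content of 52.4%. None of the 4 genes had a GATA hexamer (AGATAA, the variant TGATAA and both of these with a final G in place of A, on either strand) in these 250 bases, a motif present in 26.5% of all promoters of this length.

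Depth ran from 5315435 to 30941726 gene counts across the KO libraries and from 7633446 to 18256010 across the WT libraries. Counts were normalised to library size as CPM with edgeR's TMM factors. TPM, the share of transcripts per library after division by transcript length, were used to set one gene beside another. Xist, the RNA that silences an X chromosome, was at 106.2 to 149.1 CPM in all 4 WT libraries, with a sum of 4 Y-linked genes of 5.61 to 18.4 CPM. Among KO libraries only replicates 2 and 3 had Xist, at 361.3 and 346.2 CPM, and the other 4 had 1.37 to 2.38 CPM of Xist with 121.5 to 155.4 CPM of the Y-linked genes. Sex-linked expression and genotype were thus confounded except through KO replicates 2 and 3. At equal depth more genes were detected in every KO library (14600 to 15465) than in any WT library (13754 to 14579). Of 14 LT-HSC markers all were in the table, with summed levels of 821.2 to 2322 CPM in KO and 709.5 to 913.6 CPM in WT. Endothelial markers summed to 2573 to 13140 CPM in KO and 740.4 to 8860 CPM in WT. What part of that sum came from LT-HSCs themselves was not tested. Spi1 ranged from 9.10 to 101.3 CPM in KO and from 6.22 to 50.1 CPM in WT, with a log2 fold change of 1.31 ± 0.69 (SE, edgeR adjusted p = 0.337). Fewer cells of a type and less RNA per cell cannot be told apart in bulk libraries, and although the study counts 6 KO and 4 WT embryos, the labels do not tie each library to 1 embryo, so p-values measure the spread between these libraries.

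Of the 4 genes, Gata3 and Gata2 had the higher mean level in KO, Gata1 had the higher mean level in WT, and Zfpm1 was close in both groups. None of the 4 passed an adjusted p of 0.1 in edgeR's quasi-likelihood test over 16725 genes, where 3.99% of genes passed, 1.32% as higher and 2.67% as lower in KO. Before adjustment p was under 0.05 for Gata1, Gata2 and Gata3. Of all genes, 3139 had such a p.

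Gata3 had 14.6, 7.99, 4.95 and 2.05 CPM in WT replicates 2, 3, 4 and 1. In KO it ranged from 15.8 CPM in replicate 1 through a median of 21.5 to 28.8 CPM in replicate 4. Every KO library was above every WT library, which held for 2.88% of all genes tested. On the TPM scale 5 of 6 did, with 6.19 TPM in KO replicate 5 against 7.64 TPM in WT replicate 2. The means were 22.3 ± 5.1 CPM (SD, n = 6) and 7.41 ± 5.40 CPM (SD, n = 4), a 3.01-fold difference with a 95% interval of 1.49 to 6.08. On the log2 scale the fitted difference was 1.59 ± 0.47 (SE), with an edgeR adjusted p of 0.109. The two-sided exact permutation test on CPM gave p = 0.00476, the smallest that 210 arrangements of 6 and 4 libraries allow, without adjustment over genes. The WT libraries spread more than the KO libraries, 7.15-fold from lowest to highest against 1.82-fold, and WT replicate 2 was the closest to KO. Without WT replicate 2 the log2 difference was 2.16 and passed, at an edgeR adjusted p of 0.0746. DESeq2 with the study's fold-change threshold of 0.1 also placed Gata3 under 0.1, at an adjusted p of 0.0290. In the Xist-expressing libraries alone the log2 difference was 1.62 ± 0.75 (SE), at an edgeR adjusted p of 0.837.

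Gata2 had 34.8, 24.0, 21.6 and 14.4 CPM in WT replicates 3, 2, 1 and 4. In KO the lowest library was replicate 3 at 19.1 CPM, the median was 62.3 and the highest was replicate 6 at 78.8 CPM. Of the 6 KO libraries, 5 were above every WT library, and KO replicate 3 lay inside the WT range. The means were 57.5 ± 23.6 CPM (SD, n = 6) and 23.7 ± 8.4 CPM (SD, n = 4), a 2.42-fold difference with a 95% interval of 1.36 to 4.31. The log2 difference was 1.27 ± 0.38 (SE) at an edgeR adjusted p of 0.113, and the exact permutation test on CPM gave p = 0.0333. KO replicate 3 also had the lowest summed LT-HSC markers of the KO libraries (821.2 CPM) and the highest endothelial markers of all 10 (13140 CPM). The part of these in its Gata2 level was not tested. Without KO replicate 3 the log2 difference was 1.45 at an edgeR adjusted p of 0.0494, and without WT replicate 3 it was 1.57 at 0.0988. DESeq2 with the study's threshold gave 1.27 at an adjusted p of 0.0660. In the Xist-expressing libraries alone it was 0.95 ± 0.58 (SE), at an edgeR adjusted p of 0.837.

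**Figure D1:**
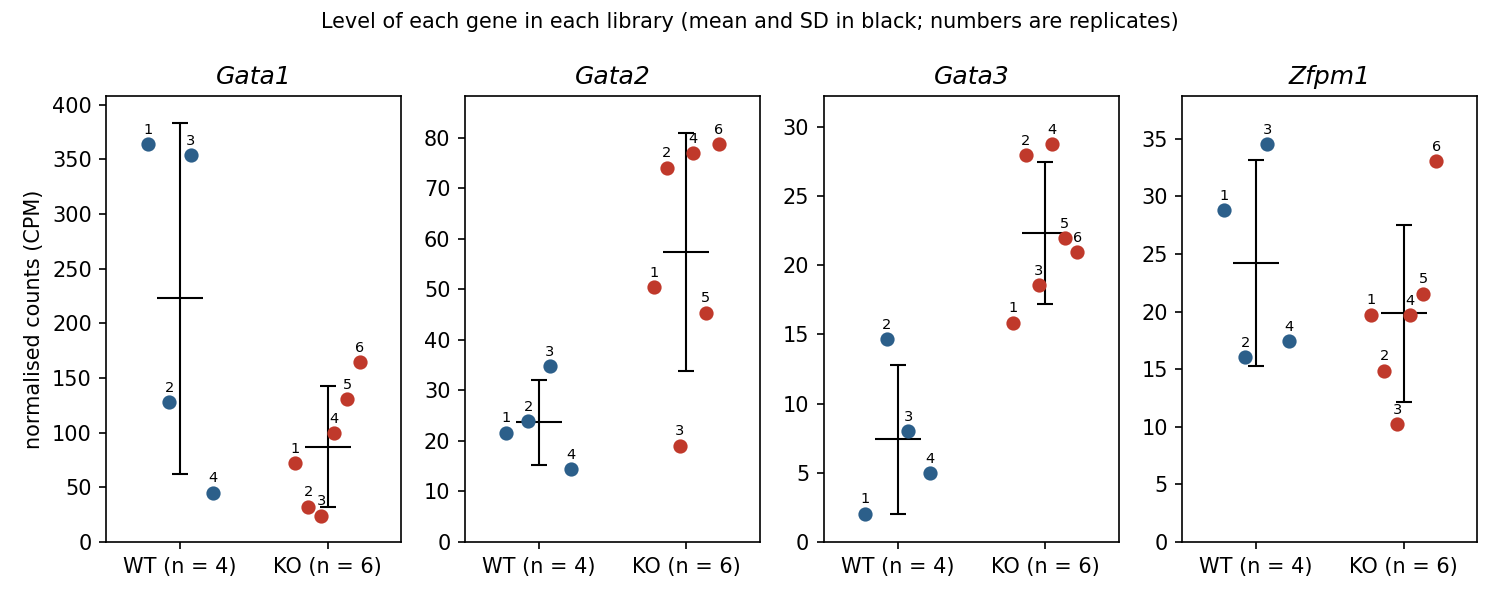
TMM-normalised CPM of Gata1, Gata2, Gata3 and Zfpm1 in each WT (blue, n = 4) and KO (red, n = 6) library, with the replicate number at each point and the group mean and SD in black. All 6 KO points of Gata3 and 5 of 6 of Gata2 sit above the WT points, Gata1 overlaps with its lowest values in KO replicates 2 and 3, and Zfpm1 overlaps throughout.

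Gata1 was the most uneven of the 4 within groups. WT replicates 1 and 3 had 363.8 and 354.0 CPM, and replicates 2 and 4 had 127.8 and 45.2 CPM. KO libraries ran from 23.8 CPM in replicate 3 through a median of 85.7 to 164.2 CPM in replicate 6. Only WT replicates 1 and 3 were above all KO libraries, and the other 2 WT libraries lay among them. WT libraries averaged 222.7 ± 160.9 CPM (SD, n = 4) and KO libraries 87.1 ± 55.2 CPM (SD, n = 6). The log2 difference was -1.35 ± 0.62 (SE), with a 95% interval of -2.71 to -0.00027 and an edgeR adjusted p of 0.266, and the exact permutation test on CPM gave p = 0.0905. Gata1 lies on the X chromosome, at X:7959260-7978071 on GRCm38. The 2 KO libraries with Xist had 32.2 and 23.8 CPM of Gata1, below all 4 WT libraries, and the 4 KO libraries without Xist had 72.2 to 164.2 CPM. With only the 6 Xist-expressing libraries the log2 difference was -3.01 ± 0.85 (SE) with an edgeR adjusted p of 0.837, and with Xist as a covariate over all 10 it was -2.56 at an adjusted p of 0.271.

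Gata1 also moved with red cell genes. The summed CPM of 30 erythroid genes (globin genes were not analysed here) was highest in WT replicate 3 (19550), KO replicate 6 (7392) and WT replicate 1 (5962). It was lowest in KO replicate 3 (1457) and WT replicate 4 (1673). The 3 libraries with the highest Gata1 were the same 3, and KO replicate 3 was lowest in both. With the log2 of that sum as a covariate, the Gata1 difference was -0.46. As Gata1 itself drives red cell genes, its level in LT-HSCs and the presence of erythroid cells cannot be told apart here.

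Zfpm1 had 28.8, 16.1, 34.5 and 17.4 CPM in WT replicates 1 to 4. In KO it ranged from 10.2 CPM in replicate 3 through a median of 19.7 to 33.1 CPM in replicate 6. The groups overlapped over most of their range, with means of 19.9 ± 7.7 CPM (SD, n = 6) and 24.2 ± 9.0 CPM (SD, n = 4). The log2 difference was -0.29 ± 0.35 (SE), with a 95% interval of -1.04 to 0.47, an edgeR adjusted p of 0.71 and an exact permutation p of 0.438. That interval spans 0.487 to 1.38 times the WT level, and differences within it were not detectable with these libraries. With the erythroid sum as a covariate the sign turned, to 0.066.

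**Figure D2:**
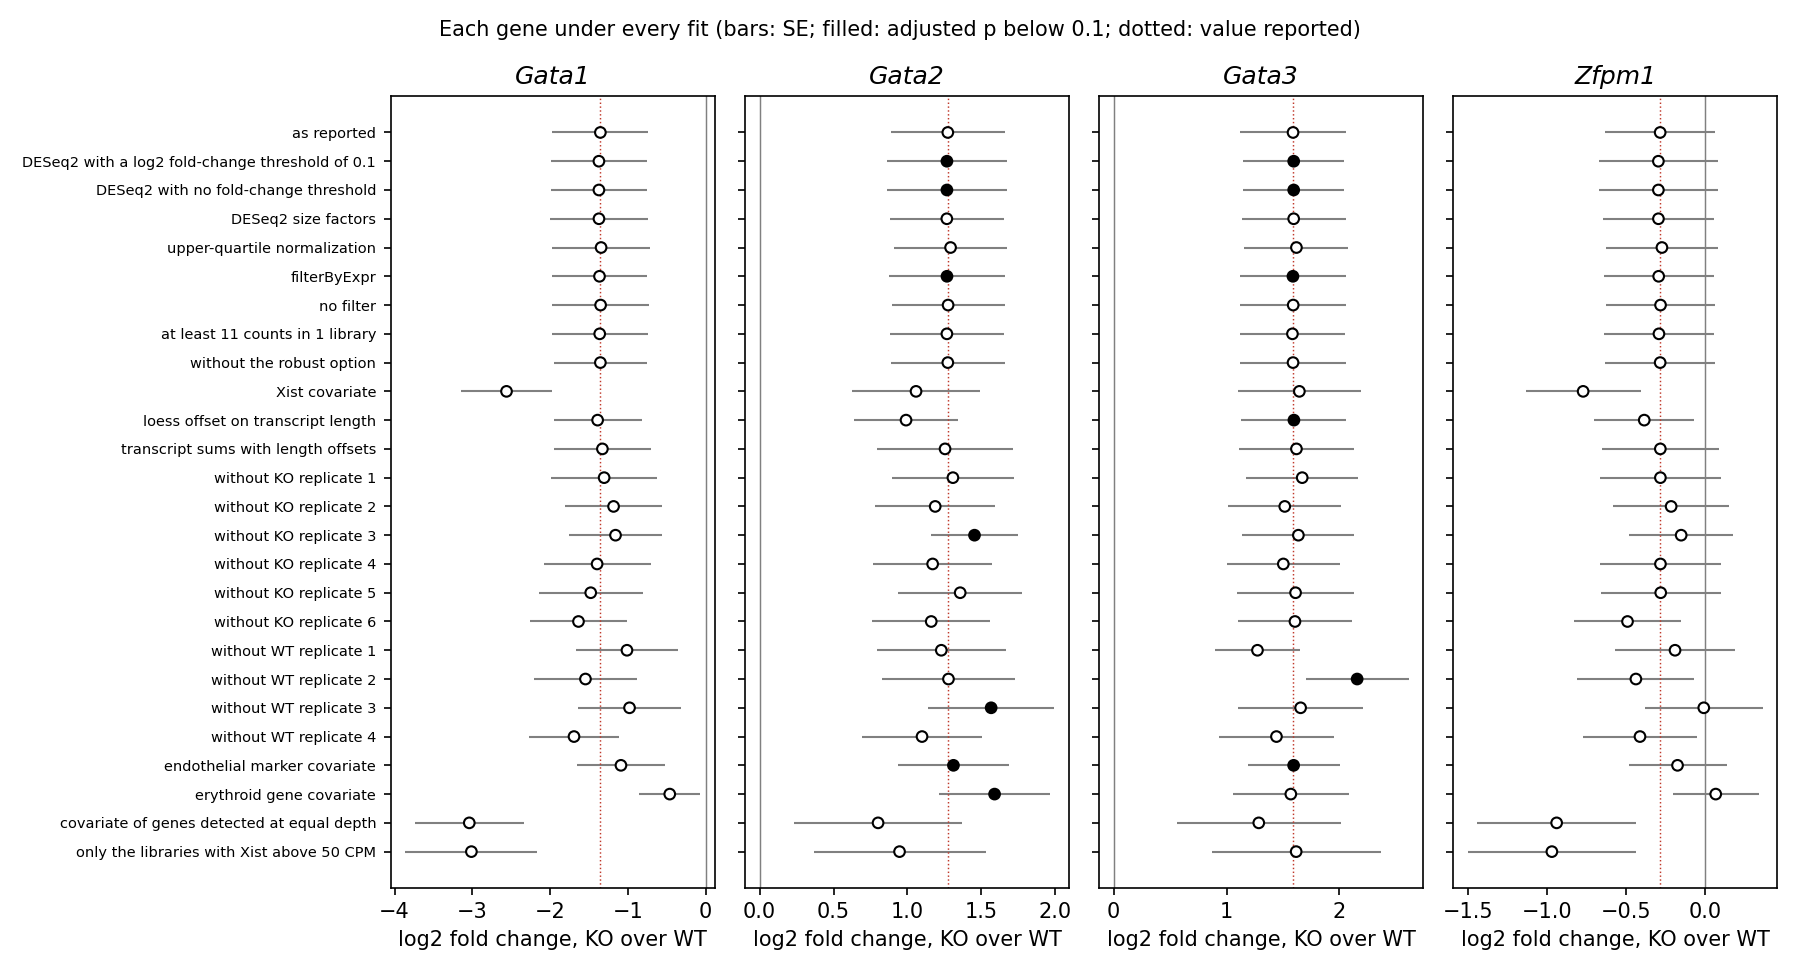
Log2 fold change of KO over WT for each gene (x axis, each panel with its own scale) under the reported edgeR fit and 25 alternatives (rows), with SE as bars and filled points where the adjusted p was below 0.1. Gata2 and Gata3 stay above 0 throughout and are filled in 7 and 6 alternatives, Gata1 stays below 0 and Zfpm1 lies near 0 or below it.

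Set side by side on the TPM scale, Gata1 was the most abundant of the 4 in 9 of 10 libraries. The exception was KO replicate 2, with 38.5 TPM of Gata2 and 21.9 TPM of Gata1. In WT the mean levels were 93.7 ± 63.5 TPM for Gata1, 7.34 ± 2.56 TPM for Gata2, 5.72 ± 1.52 TPM for Zfpm1 and 3.03 ± 3.10 TPM for Gata3 (SD, n = 4). The last 3 overlapped in their spread. In KO the order was Gata1 at 48.9 ± 25.8 TPM, Gata2 at 24.7 ± 12.4 TPM, Gata3 at 11.9 ± 4.1 TPM and Zfpm1 at 6.34 ± 1.87 TPM (SD, n = 6). Gata3 was above Zfpm1 in 6 of 6 KO libraries and in 1 of 4 WT libraries, WT replicate 2. Gata2 was above Zfpm1 in 6 of 6 KO and 3 of 4 WT libraries.

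The ratio of Gata2 to Gata1, the 2 factors of the GATA switch, was higher in KO. Within a library a ratio does not depend on sequencing depth. There were 0.0441, 0.131, 0.0802 and 0.190 TPM of Gata2 for each TPM of Gata1 in WT replicates 1 to 4. In KO the ratio ran from 0.203 in replicate 5 to 1.75 in replicate 2, and no KO library fell into the WT range. How often ratios of other gene pairs separate the groups in this way was not counted. The geometric means were 0.511 in KO and 0.0969 in WT, 5.27-fold apart. The log2 difference was 2.40 (exact permutation p = 0.00476, and 0.0286 after adjustment over the 6 pairs of genes). WT replicate 4 and KO replicate 5, the closest, had 0.190 and 0.203. Without WT replicate 1 the log2 difference was 2.02 and the adjusted exact p 0.0714. In the Xist-expressing libraries alone, KO replicates 2 and 3 had ratios of 1.75 and 0.468 against 0.0441 to 0.190 in WT. Gata1 moved with red cell genes, and the part of erythroid RNA in ratios to Gata1 was not tested. WT replicates 1 and 3, with the lowest ratios, had erythroid sums of 5962 and 19550 CPM. WT replicate 4, with the highest WT ratio, had the lowest WT sum, 1673 CPM. In KO, replicates 5 and 6 had the highest sums, 4319 and 7392 CPM, and the lowest ratios, 0.203 and 0.345.

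Gata3 stood to Gata1 at a geometric mean of 0.274 in KO and 0.0319 in WT, 8.61-fold apart. WT replicates 1 to 4 had 0.00727, 0.115, 0.0183 and 0.0676. The KO libraries spanned 0.0954 in replicate 5 to 0.852 in replicate 3, so WT replicate 2 lay inside the KO range. The log2 difference was 3.11 (exact permutation p = 0.0143, adjusted 0.0286), and without WT replicate 1 it was 2.40 with an adjusted exact p of 0.0893.

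Zfpm1 was lower in KO relative to Gata2 and to Gata3. The Zfpm1 to Gata2 ratio was 0.990, 0.533, 0.722 and 1.11 in WT replicates 1 to 4, and 0.147 to 0.511 in KO, with no overlap. The share of other gene pairs without overlap was not counted. The log2 difference was -1.47 (exact permutation p = 0.00952, adjusted 0.0286). The gap between the groups was narrow, 0.511 in KO replicate 3 against 0.533 in WT replicate 2. Without WT replicate 1 or WT replicate 4 the log2 difference was -1.38 or -1.32, and the adjusted exact p 0.0714 or 0.0536. The Zfpm1 to Gata3 ratio was 0.281 to 0.930 in KO and 6.01, 0.612, 3.17 and 3.12 in WT replicates 1 to 4, the second of which fell inside the KO range. Its log2 difference was -2.18 (exact permutation p = 0.0190, adjusted 0.0286). This call was lost, at adjusted exact p of 0.0571 to 0.0893, when any one of KO replicates 2, 3 and 4 or WT replicates 1, 3 and 4 was left out.

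The other 2 ratios did not pass. Zfpm1 to Gata1 spanned 0.0887 to 0.257 over the KO libraries and 0.0437 to 0.211 over the WT libraries, a log2 difference of 0.92 (exact permutation p = 0.110, adjusted 0.131), which passed at 1.40 with an adjusted exact p of 0.0476 once WT replicate 4 was left out. Gata3 to Gata2 spanned 0.334 to 1.82 over the KO libraries and 0.165 to 0.872 over the WT libraries, a log2 difference of 0.71 (exact permutation p = 0.305). The 6 ratios are built from 4 genes and are not independent of each other. The 4 that passed each set Gata2 or Gata3 against Gata1 or Zfpm1.

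**Figure D3:**
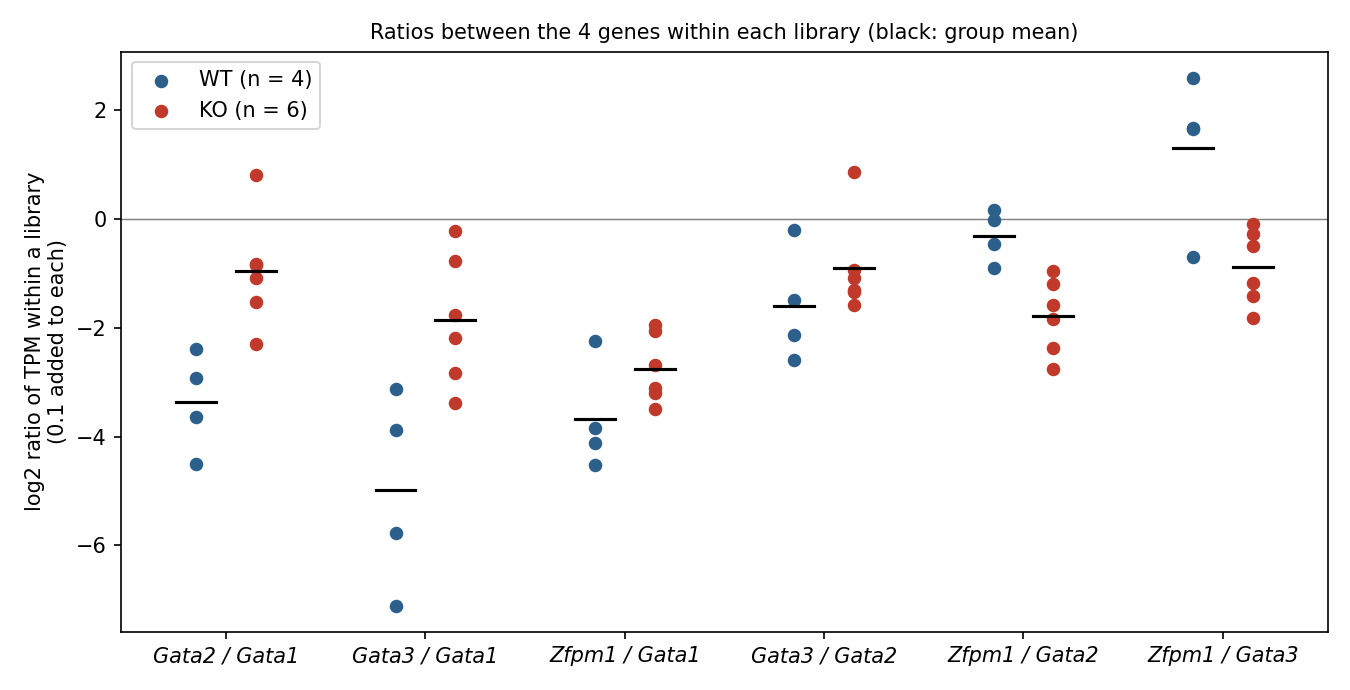
Log2 ratio of TPM (0.1 added) between each pair of the 4 genes within each library, WT in blue (n = 4) and KO in red (n = 6), with the group mean as a black bar and equal levels at 0. The KO and WT points do not overlap for Gata2 over Gata1 and for Zfpm1 over Gata2, which was not counted for pairs of other genes.

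By estimated counts, each gene was carried mainly by 1 transcript in both groups. Gata1-201, the full-length coding transcript, took 94.4 to 100% of Gata1 TPM. Zfpm1-201 took 90.1 to 100% of Zfpm1 TPM. Gata2-202, which starts at the distal first exon whose promoter is given above, took 50.4 to 100% of Gata2 TPM and 70.6 to 100% of its estimated counts. Gata2-201, which starts at the proximal first exon, was found in 6 libraries (KO replicates 1, 2, 3, 4 and 6 and WT replicate 3) at 0.849 to 2.30 TPM. The rest of Gata2 was mostly Gata2-203, a short transcript from the proximal start (up to 5.98 TPM, in KO replicate 2), and Gata2-204, a retained-intron transcript from the 3′ part of the gene, at up to 7.22 TPM in KO replicate 1 and at 0 in KO replicates 3 and 5 and WT replicate 4.

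Gata3-201 held 94.1 to 100% of the estimated counts of Gata3 but as little as 46.2% of its TPM. The remainder was nearly all Gata3-205, a processed transcript of 243 bases, for which few counts make a large TPM. In KO replicate 3, 17.4 estimated counts of Gata3-205 equalled 6.37 TPM, beside 326.3 counts and 6.41 TPM of Gata3-201. Ratios that use Gata3 TPM carry this. With gene counts in place of TPM the Gata3 to Gata1 log2 difference was 3.12 and the Zfpm1 to Gata3 difference -2.19, and both passed. Shares of the leading transcript did not differ detectably between KO and WT for any of the 4 genes (exact permutation p = 0.776 to 0.905 on TPM). For Gata2 the mean shares were 75.2 ± 14.7% (SD, n = 6) in KO and 77.3 ± 20.7% (SD, n = 4) in WT.

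Of the 11 transcripts of these genes with enough counts to test, none passed an adjusted p of 0.1 in edgeR, where 0.00143% of 70054 transcripts did. The unadjusted p was under 0.05 for 3 of the 11, and for 9737 of all 70054 transcripts tested. Gata1-201 had a log2 difference of -1.38 ± 0.62 (SE), Gata2-202 of 1.26 ± 0.38 and Gata3-201 of 1.57 ± 0.50, each close to that of its gene. Gata3-203, Gata3-204 and Zfpm1-204 were at 0 in all libraries. Gata3-202, Gata3-206, Zfpm1-202, Zfpm1-203 and Zfpm1-205 had 0.1 to 6.1 estimated counts over all 10.

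**Figure D4:**
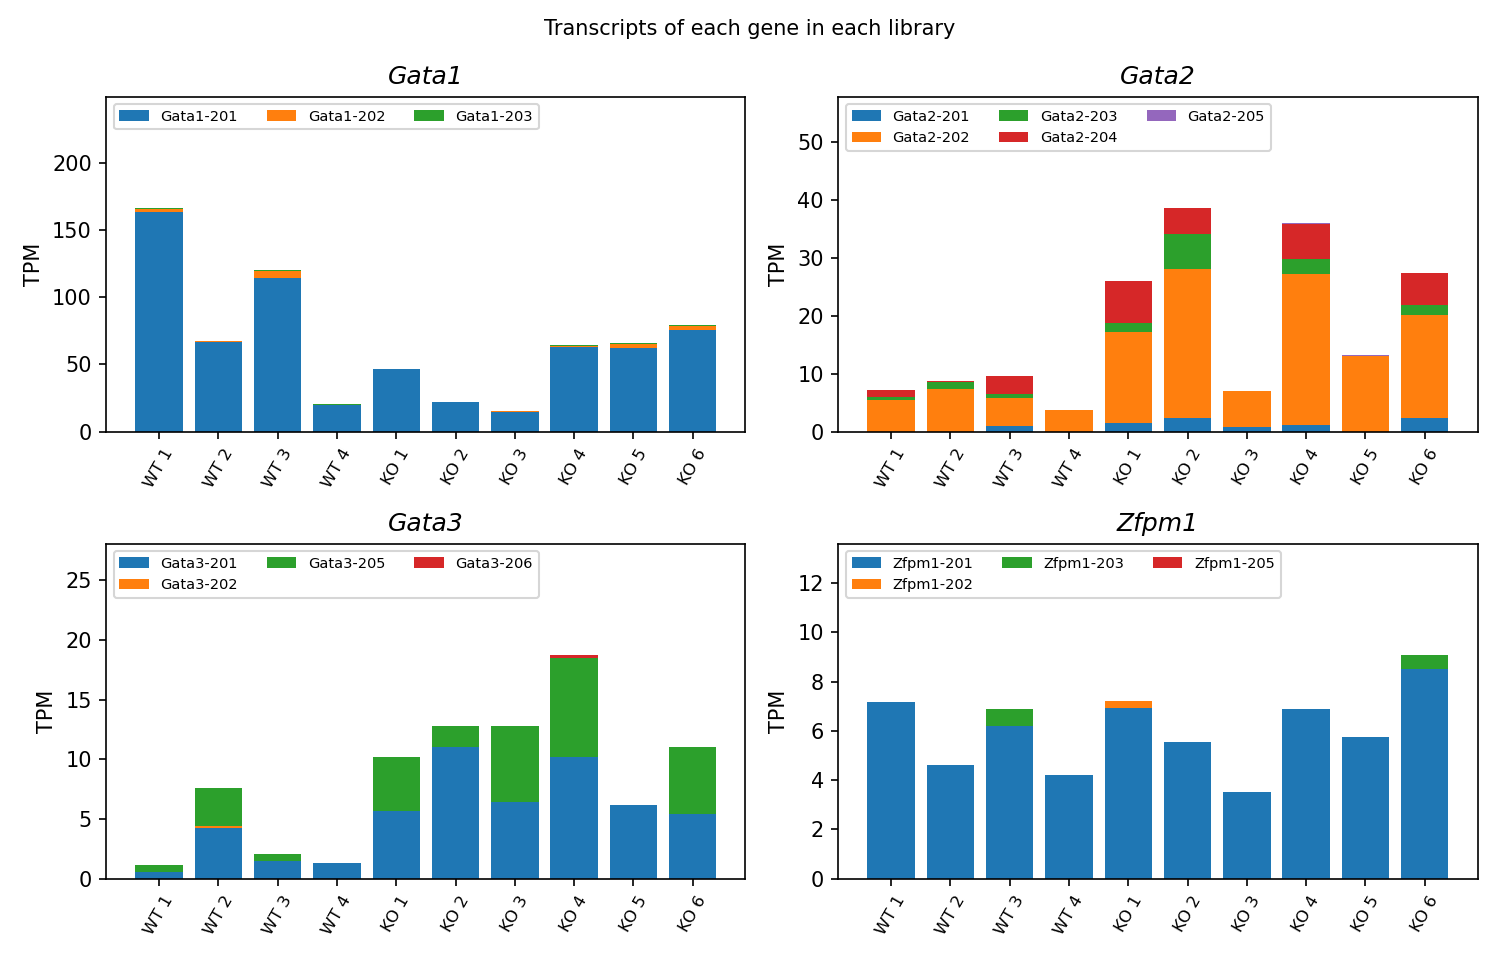
TPM of each transcript of the 4 genes, stacked to the gene total, in the 4 WT and 6 KO libraries. One transcript makes up nearly all of Gata1 and Zfpm1, Gata2-202 leads Gata2, and the short Gata3-205 adds to Gata3-201.

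Genes that GATA factors work with or act on were read as lists, each by its count and its median log2 difference, beside a median of 0.06 over all genes. These lists were written with earlier results of these data known. Of 30 erythroid genes of the GATA1 program, 4 fell in KO (2.67% of all genes did) and none rose. The median was -1.29, and 29 had a value below 0, while 53.1% of all genes had a value above 0. The 4 were Alad and Uros, enzymes of heme synthesis, the surface protein Icam4 and Epor, the erythropoietin receptor. Alad went from 614.8 ± 409.7 CPM in WT to 213.7 ± 63.4 CPM in KO (log2 difference -1.53 ± 0.38, edgeR adjusted p = 0.0836). Epor went from 123.9 ± 46.9 to 62.0 ± 16.3 CPM (-0.999 ± 0.28, edgeR adjusted p = 0.0938). Summed CPM of the 30 genes was 19550, 5962, 3237 and 1673 in WT replicates 3, 1, 2 and 4, against 1457 to 7392 in KO. KO replicates 5 and 6 (4319 and 7392 CPM) were above WT replicates 2 and 4.

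Of 20 megakaryocyte genes of the GATA1 program, 1 rose (1.32% of all genes did), none fell and 19 had a value above 0, as did 53.1% of all genes, with a median of 0.97. The gene that rose was Selp, P-selectin, at 28.5 ± 18.2 CPM in KO and 3.27 ± 2.24 CPM in WT (log2 difference 3.13 ± 0.67, edgeR adjusted p = 0.0824). The erythroid and megakaryocyte lists, both driven by GATA1 and FOG1 in maturing cells, thus had medians of opposite sign. Summed megakaryocyte genes were at 6095, 4717 and 4246 CPM in KO replicates 6, 4 and 5, above all WT libraries (554.3 to 2385 CPM). KO replicates 1, 2 and 3 had 1132, 1195 and 803.1 CPM, below WT replicates 2, 3 and 4. Selp did not follow these sums throughout. It was highest in KO replicate 2 (57.4 CPM), then in KO replicates 4 and 6 (37.2 and 34.3 CPM).

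Stem cell genes known to be bound or controlled near GATA2 numbered 19, of which 3 rose (1.32% of all genes did) and none fell, with a median of 0.89. These were Mecom, a stem cell transcription factor, Hlf, which marks stem cells, and the surface protein Cd34. Mecom was at 116.1 ± 52.6 CPM in KO and 32.7 ± 16.8 CPM in WT (1.83 ± 0.46, edgeR adjusted p = 0.0836). Every KO library (47.2 CPM or more) was above every WT library (45.3 CPM or less), which held for 2.88% of all genes tested. Hlf was at 88.2 ± 44.2 and 24.6 ± 6.9 CPM (1.84 ± 0.49, edgeR adjusted p = 0.0906), with KO replicate 3 (13.7 CPM) below all WT libraries, as it was in the low range for Gata2. Cd34 was at 249.7 ± 48.7 and 131.0 ± 38.5 CPM (0.93 ± 0.23, edgeR adjusted p = 0.0824). All 3 are also on the LT-HSC marker list, where 4 of 14 rose (1.32% of all genes did), with Hoxa9 as the fourth. None of that list fell, and its median was 1.22.

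No gene of the proteins that GATA factors assemble with passed the test. Of 30 GATA partners, from the TAL1 and LMO2 complex to the NuRD deacetylase complex, the median was 0.05. The partner of smallest p was Gatad2b, a NuRD subunit, with 62.0 ± 8.0 CPM in KO and 42.1 ± 6.3 CPM in WT (edgeR adjusted p = 0.143). Every KO library (51.1 CPM or more) was above every WT library (47.9 CPM or less), which held for 2.88% of all genes tested. Tal1, which shares many binding sites with GATA1, had 58.0 ± 23.7 and 108.2 ± 44.8 CPM (adjusted p = 0.172 in edgeR). None of the 6 other GATA and FOG genes passed, with a median of 0.97. Zfpm2 (FOG2) and Gata5 had the smallest p among them, with edgeR adjusted p of 0.393 and 0.475. Gata4, a factor of liver endothelium and stroma, was at 42.5 to 190.1 CPM in KO and at 157.1, 147.4 and 104.9 CPM in WT replicates 2, 3 and 4, with 0 counts in WT replicate 1. That library also had the lowest endothelial markers (740.4 CPM) and the lowest Gata3. What part these have in each other was not tested.

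For GATA3, none of 25 T cell and innate lymphoid genes rose and 1 fell, a share near the 2.67% of all genes that did, with a median of 0.03, or -0.07 with 2 genes at 0 in a group and too few counts elsewhere left out. The gene that fell was Il1rl1, the receptor for interleukin 33, at 1.39 ± 0.59 CPM in KO and 7.53 ± 4.01 CPM in WT (log2 difference -2.44 ± 0.57, edgeR adjusted p = 0.0824). Among 14 mast cell, basophil and eosinophil genes none passed, with a median of -0.50, or -0.55 with genes at 0 in KO set at the bound that 3 counts per library give. Cma1 and Tpsb2, 2 mast cell proteases with the smallest p of the list (edgeR adjusted p of 0.168 and 0.144), had 0 counts in every KO library. In WT their counts came from replicate 1, with 237 and 104, and the other 3 WT libraries had at most 1.

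Markers of other cells give the setting of these values. Of 15 macrophage markers 1 fell (2.67% of all genes did), none rose and the median was -0.79. It was Marco, a scavenger receptor, with 0 counts in all KO libraries and 45, 60, 193 and 32 counts in WT replicates 1 to 4, at least 30-fold lower in KO against a floor of 3 counts per library. Summed macrophage markers were at 449.7 to 984.3 CPM in KO and 138.3 to 928.5 CPM in WT. None of 16 endothelial, 14 hepatoblast, 11 mesenchymal and 12 granulocyte markers passed, with medians of 0.27, 0.72, 0.24 and 0.45. With the endothelial sum as a covariate, chosen after seeing the data, Gata2 and Gata3 had log2 differences of 1.31 and 1.60. Both passed, at edgeR adjusted p of 0.0993 and 0.0864. With the erythroid sum, also so chosen, Gata2 passed (0.0867) and Gata3 did not (0.132). With a covariate of genes detected at equal depth, likewise so chosen, neither passed. The log2 differences were then 0.80 and 1.29, at edgeR adjusted p of 0.501 and 0.409. These list calls come from the fit to all 10 libraries, in which 667 genes of the whole table passed. With any 1 of KO replicates 1, 2, 5 and 6 or WT replicate 1 left out, or with Xist as a covariate, 0 genes passed in edgeR, 1 passed without KO replicate 4 and 1003 without KO replicate 3.

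**Figure D5:**
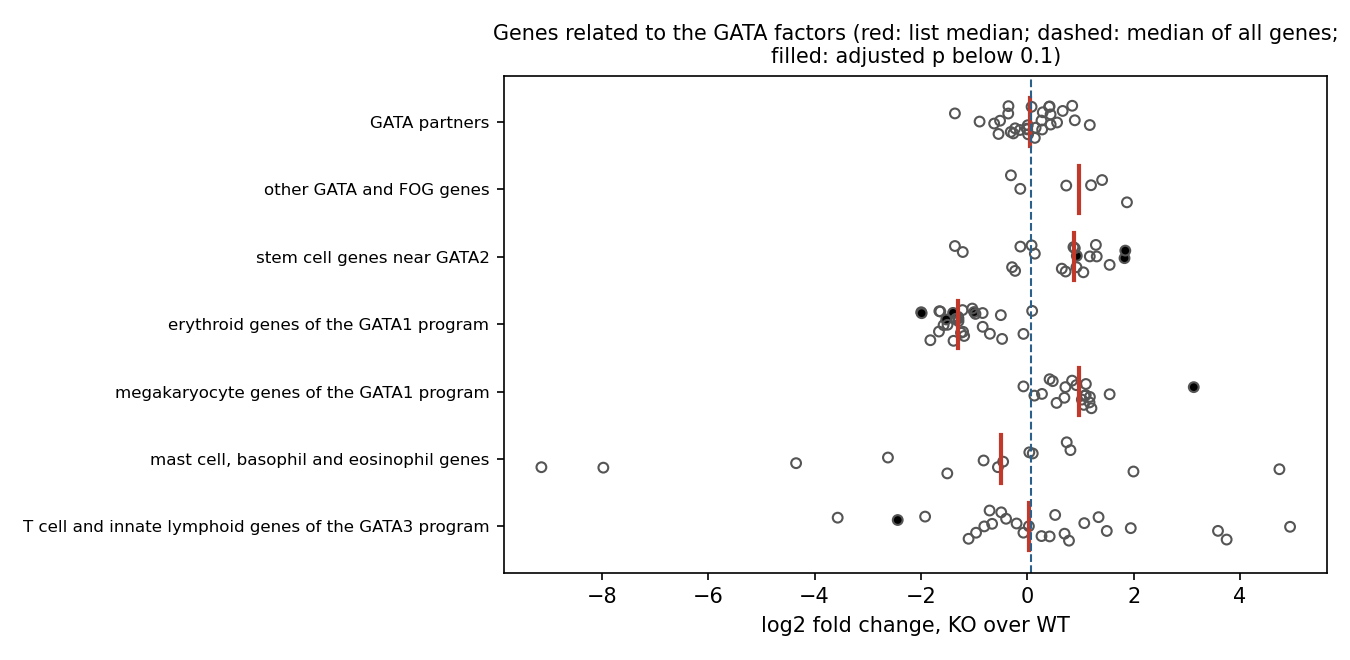
Log2 fold change of KO over WT (x axis) for each gene of 7 lists related to GATA factors (rows), with the list median in red, the median of all genes as a dashed line and filled points for an adjusted p below 0.1. Erythroid genes lie below 0 with a median of -1.29 and megakaryocyte genes above it with a median of 0.97, and the far left points of the mast cell list are Cma1 and Tpsb2, which had 0 counts in KO.

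Genes whose levels followed each of the 4 most closely over the 10 libraries were sought among 9495 genes with a mean of at least 10 CPM, by Pearson's r of log2(CPM + 1). The libraries share depth, sex-linked and cell-content differences, so these values are given as a description. Gata1 was followed by Tspan33 (r = 0.971), Samd14 (0.954) and Creg1 (0.944). Zfpm1 was followed by Xk (0.975), a red cell membrane protein, Dyrk3 (0.938), an erythroid kinase, and Tspo (0.936). Gata2 was followed by Ikbke (0.975), Crtc1 (0.961) and Pim2 (0.960), a survival kinase. Gata3 was followed by Lcor (0.981), Cep68 (0.980) and Nfat5 (0.978). Between the 4 genes themselves, Gata1 and Zfpm1 stood at r = 0.883, and at 0.888 once each group's mean was removed. Gata2 and Gata3 stood at 0.702, and at 0.339 with the means removed. Gata2 stood at 0.28 with Zfpm1 and at 0.063 with Gata1 over all libraries, and at 0.684 and 0.615 with the means removed.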

How the data were processed

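RNA of LT-HSCs sorted from fetal livers was measured in 10 libraries, 6 KO and 4 WT as grouped by the genotype in the labels. Demultiplexing used bcl2fastq 2.20 and quantification Kallisto 0.44.0, per the submitters' processing notes, with Gencode vM16 on mm10/GRCm38. For each library the authors deposited estimated counts and TPM per transcript, neither filtered, TPM being scaled by effective length and library. The authors also deposited a table of whole-number counts per gene symbol, summed over transcripts and not normalised. Sums of the transcript estimates were within 1 count of 97.5% of its values, and of 39 of the 40 values of the 4 genes. Estimated counts were rounded to whole numbers before testing. Annotation came from Gencode vM21, a later release, to which 99.7% of transcripts matched by stable ID, and promoters from RefSeq (GRCm38.p6). Reads carry no molecular identifiers, so counts include PCR copies. Replicate numbers follow accession order and pair nothing.

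All genes holding 11 or more counts over the libraries were compared with edgeR 4.0.16 in R 4.3.3 (TMM, robust glmQLFit, glmQLFTest, two-sided), with Benjamini-Hochberg adjusted p below 0.1 as the limit, after the study, whose own test, DESeq2 (1.42.0), was an alternative. Ratios were log2 of TPM plus 0.1 within a library, compared by two-sided exact permutation tests over 210 arrangements with a threshold of 0.05. Other alternatives were size factors, filters, length offsets, covariates and each library left out. The genes and lists were chosen with earlier results of these data known. Genes named are the 4, their transcripts and overlapping genes, Spi1, the called genes of each list (up to 4, otherwise the 2 of smallest p) and the 3 closest in level to each of the 4. Gata4 and its pattern over libraries were chosen after its values were seen. Python 3.11.15, pandas 2.3.3, NumPy 2.4.6 and Matplotlib 3.10.9 made tables and figures.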

Additional observations from a re-analysis of the deposited data

Results flagged for a closer look

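In 28 sets of values of 1 group (levels, ratios and transcript shares), the highest or lowest library was compared with the rest by its gap to the nearest library, and 2 stood apart; chance gives about 1 in 20. The Gata3 to Gata2 ratio of KO replicate 3 was 0.8643 on the log2 scale, while the other 5 KO libraries lay between -1.58 and -0.94. It was the only library with more TPM of Gata3 than of Gata2. The share of Zfpm1 TPM in Zfpm1-201 was 90.08% in WT replicate 3 and 100% in the other 3 WT libraries, the rest being 3.69 estimated counts of Zfpm1-203. A share cannot exceed 100%, so with the other 3 tied there any lower value stands apart, and the 1 in 20 does not apply.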

How the results depend on the processing

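Gata2 passed, at log2 differences of 1.27 under DESeq2 with and without its fold-change threshold and filterByExpr, 1.31 with the endothelial and 1.59 with the erythroid covariate. Gata3 passed at 1.60 under both DESeq2 settings, 1.59 with filterByExpr and 1.60 with the loess offset on length and the endothelial covariate. Neither passed with the Xist covariate (1.06 for Gata2 and 1.65 for Gata3), the covariate of genes detected at equal depth (0.80 and 1.29), transcript sums with length offsets (1.25 and 1.62) or the Xist-expressing libraries alone (0.95 and 1.62), nor Gata2 with the loess offset (0.99). Gata1 passed in none of 25 alternatives (-3.04 to -0.46, adjusted p 0.141 to 0.837). Zfpm1 turned to 0.066 with the erythroid covariate. Genes called were 1136 and 2143 by DESeq2 with and without the threshold, and 0 with the Xist covariate, the covariate of genes detected at equal depth and the Xist-expressing libraries alone, the last 2 and the endothelial and erythroid covariates having been chosen after seeing the data. The cause was not tested. Without 1 library, the values ranged from 0 to 1003 genes called, 1.10 to 1.57 for Gata2, 1.27 to 2.16 for Gata3, -1.69 to -0.98 for Gata1 and -0.49 to -0.01 for Zfpm1. The ratios ranged from 2.02 to 2.72 (Gata2 to Gata1), 2.40 to 3.72 (Gata3 to Gata1), 0.64 to 1.40 (Zfpm1 to Gata1), 0.35 to 1.18 (Gata3 to Gata2), -1.67 to -1.28 (Zfpm1 to Gata2) and -2.85 to -1.75 (Zfpm1 to Gata3). Differences in the share of the leading transcript, none past the threshold, ranged from -0.38 to 0.98 percentage points (Gata1), -11.1 to 5.49 (Gata2), -9.91 to 8.01 (Gata3) and -1.68 to 1.73 (Zfpm1), the last at -0.035 on estimated counts. A pseudocount of 1 TPM or gene counts kept all 6 ratios on their side of the threshold. No member transcript passed in any alternative. No paired analysis was possible because the replicate numbers follow accession order and pair no libraries. Limits: 4 WT libraries, all with Xist, bound every comparison, and the sums of erythroid genes and of endothelial markers varied within both groups.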
